A study of Apeltes quadracus with 21 samples.

Results

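In *Apeltes quadracus*, the fourspine stickleback, 17670 of 31485 gene models outside the *Hox* list met a minimum level in the first or last dorsal spine. In 18 of them, levels were in strict order along the 4 dorsal spines, from the first to the last, in each of 3 fish. Of these, 15 were higher in every spine than in the spine in front of it (rising genes) and 3 were lower (falling genes). The members were chosen on the counts themselves: counts were scaled to a common library total (CPM), gene models with a mean of at least 1 CPM in the first or the last spine were kept, and the order had to be strict within every fish. Of 17670 gene models that met the minimum, the 15 rising genes were 0.0849% and the 3 falling genes 0.017%. Their values in the spines are therefore a description and carry no test, whereas their levels in the pterygiophore and the fins did not enter the choice. Comparisons of these levels with the spines use the spine values and are not independent of the choice.

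RNA-seq was done on 7 tissues of each of 3 fish of the Louisbourg population, raised in the laboratory, for a total of 21 libraries, 3 of each tissue. The tissues were the anal fin (AF), the dorsal fin (DF), a blank pterygiophore (Pter) and the dorsal spines, numbered from the head as DS1, DS2 and DS3, with DSL for the last one in front of the dorsal fin. All fish were fry with 4 dorsal spines at the fin fold stage (stage 31) and carried the genotype L/L at *hoxdb*, so no other genotype serves as a control here. Replicates 1, 2 and 3 are the individual fish, each of which gave every tissue. Whole structures were sequenced, so fewer cells of a type and less RNA per cell cannot be told apart. The labelled tissue types could not be checked against cell type markers, because *Hox* genes are the only named genes in the table.

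In sticklebacks the dorsal spines are free-standing bony elements on the midline of the back, which the fish erect in defence. A pterygiophore is the midline bone that supports a spine or a fin ray, and a blank pterygiophore carries no spine. *Hox* genes encode homeodomain transcription factors that pattern the anterior–posterior axis, and their expression domains are staggered along it in the order of the genes in a cluster. A level that changes in 1 direction along the spines is therefore a familiar pattern for *Hox* genes. Among the other gene models nothing is known here of function: the members carry only identifiers, and no role can be given to any of them.

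By the same rule, 7 of 33 *Hox* genes that met the minimum were in rising order along the spines (21.2%) and 2 in falling order (6.06%). The rising ones were *HOXD11B*, *HOXD9B*, *HOXC10A*, *HOXD4A*, *HOXD9A*, *HOXD10A* and *HOXA10B*, and the falling ones were *HOXA2A* and *HOXA5A*. Mean levels of *HOXD11B* were 0.0549, 0.465, 10.3 and 34.2 CPM in DS1, DS2, DS3 and DSL. A step of at least 5% at each of the 9 comparisons within fish (3 steps in 3 fish) left 2 of the 15 rising genes outside the *Hox* list, STRG.17356 and STRG.19005, and 6 of the 7 rising *Hox* genes.

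The choice of library scaling decided most of the membership. Totals ranged from 26357373 to 34564481 counts, and the typical gene was not level along the spines when counts were divided by them. The median step over the 17670 gene models, on the scale of log2(CPM + 0.5), was taken in each fish and then averaged over the fish. It was -0.09 from DS1 to DS2, -0.10 from DS2 to DS3 and 0.27 from DS3 to DSL. Scaling by TMM, the trimmed mean of M values, which sets the typical gene level between libraries, brought these medians to -0.01, 0.00 and 0.01. Under TMM the rule picked 19 rising and 6 falling genes, of which 4 and 2 were members.

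The strict order was kept by 6 members under the raw totals, under TMM and under the RLE (relative log expression) factors. They were the rising genes STRG.11731, STRG.15943, STRG.17356 and STRG.2259 and the falling genes STRG.15092 and STRG.8506. Of the 7 rising *Hox* genes, 6 kept the order under TMM, *HOXD4A* being the exception. Among the other rising genes, 3 lost 1 of the 9 steps under TMM, 4 lost 2 steps, and 4 lost 3 or more. The losses lay in DS3 to DSL or in DS1 to DS2 of replicate 3, which are the steps at which the typical gene moved up. With raw totals the median step from DS1 to DS2 was -0.21, -0.23 and 0.18 in replicates 1, 2 and 3.

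**Figure D1:**
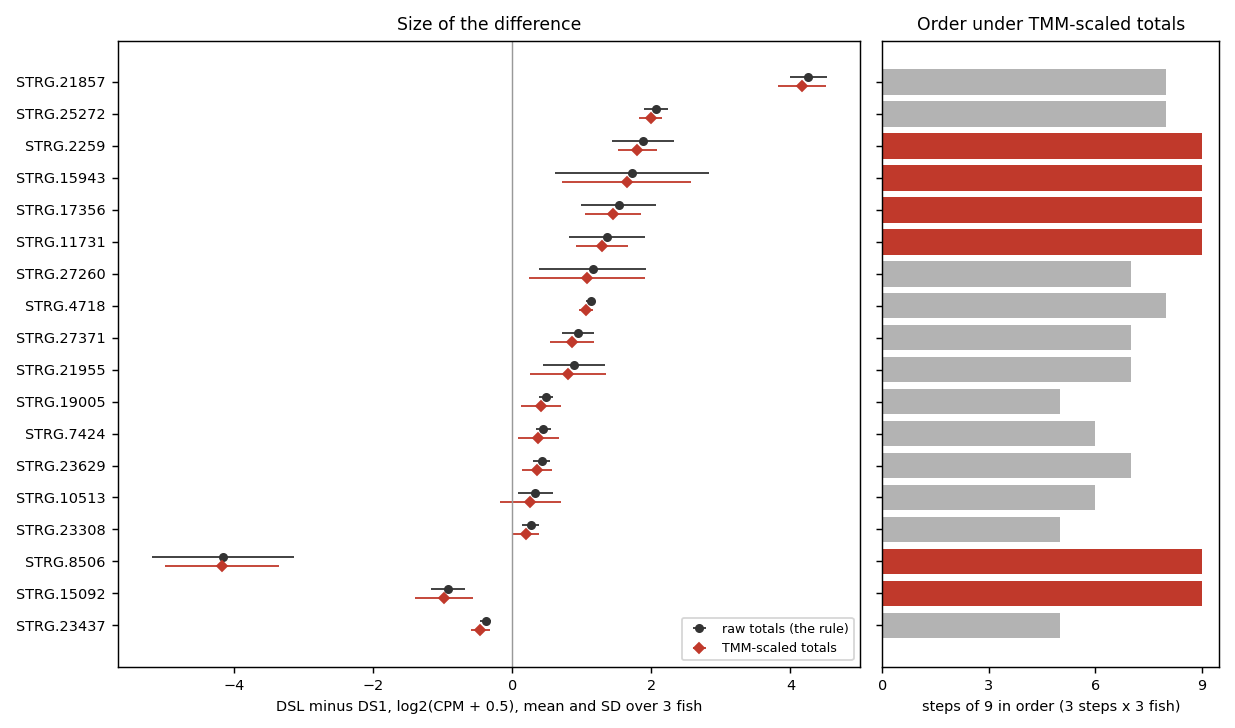
Left, DSL minus DS1 on the scale of log2(CPM + 0.5) for each of the 18 members, as the mean and SD over 3 fish, with counts divided by raw totals (black circles) or TMM-scaled totals (red diamonds). Right, how many of 9 steps along the spines keep the order under TMM-scaled totals, with the 6 members that keep all 9 in red. Under TMM the strict order is lost in 12 of 18 members. The end difference shrinks in every rising gene and grows in size in each falling gene. TMM applies 1 factor per library to all genes, so this is 1 change of scale and not a separate result for each gene. The smallest end differences among the rising genes become 0.26 ± 0.44 in STRG.10513 and 0.19 ± 0.20 in STRG.23308.

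The 15 rising genes ranged over a wide span of sizes. DSL exceeded DS1 by 0.27 to 4.26 on the log2 scale, with a median of 1.13. The difference was over 1 in 8 genes and under 0.5 in 5 genes. The step from DS3 to DSL was the largest in 9 genes, that from DS1 to DS2 in 4, and that from DS2 to DS3 in 2. This holds for raw totals, with which the typical gene itself was higher in DSL than in DS3. With TMM-scaled totals the numbers were 5, 4 and 6 genes, and the mean of DSL was above that of DS3 in 9 of the 15. DSL was above DS1 in 3 of 3 fish in 13 of them, the exceptions being STRG.10513 and STRG.23308 in replicate 3. In no rising gene did all 9 steps exceed 2 counting SDs, the Poisson error of a difference between a pair of counts, and each had at least 1 step under 1 counting SD.

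**Figure D2:**
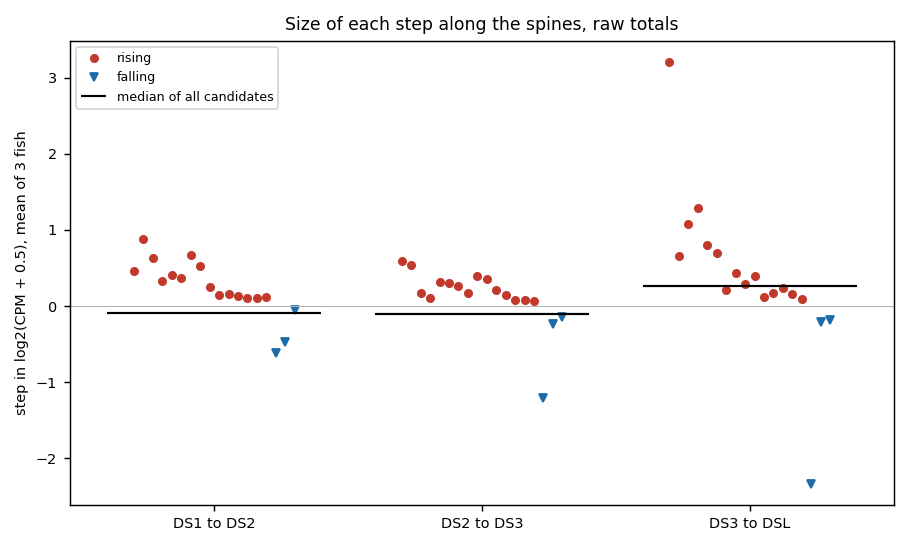
Size of each step between neighbouring spines in log2(CPM + 0.5), as the mean of 3 fish, for the 15 rising genes (red circles) and the 3 falling genes (blue triangles), with raw totals. Black lines mark the median of all 17670 gene models in each fish, averaged over the 3 fish, at -0.09, -0.10 and 0.27. The step from DS3 to DSL of 6 rising genes is smaller than this value.

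STRG.21857 (chromosome 17, 3426172 to 3439506, + strand) had the largest difference among the rising genes. In DS1 it had 1.28, 1.81 and 2.51 CPM in replicates 1, 2 and 3, in DS2 it had 2.42, 3.02 and 2.63 CPM, and in DS3 it had 2.64, 5.13 and 5.66 CPM. DSL had 32.6, 53.2 and 48.4 CPM. Neighbours among DS1, DS2 and DS3 overlapped between fish, whereas the lowest DSL library was above the highest library of the 3 spines in front of it. The difference between DSL and DS1 was 4.26 ± 0.26 on the log2 scale (SD, n = 3), of which the last step made up 75.5%. Under TMM the gene lost 1 step, DS1 to DS2 in replicate 3, where the raw values of 2.63 CPM in DS2 and 2.51 CPM in DS1 lay 0.302 counting SDs apart.

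The level of this gene in the fins was far above that in any spine. DF had 354, 459 and 527 CPM and AF had 412, 566 and 556 CPM. Pter had 13.5, 17.9 and 15.9 CPM, which placed it between DS3 and DSL in 3 of 3 fish. The order of the tissue means was DS1, DS2, DS3, Pter, DSL, DF and AF. AF was above DF in 3 of 3 fish. The difference, AF minus DF, was 0.20 ± 0.28 on the log2 scale (SE), in a fit that does not pair the fins of a fish.

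STRG.25272 (chromosome 19, 16240235 to 16243869, + strand) was the next in size, at 2.07 ± 0.17. Replicate 2 was the highest fish in all 7 tissues. DS1 had 5.37, 13.6 and 9.27 CPM, DS2 had 9.47, 24.2 and 19.8 CPM, DS3 had 21.4, 28.8 and 23.3 CPM, and DSL had 21.4, 65.7 and 40.4 CPM. In replicate 1 the last step was a ratio of 1.00 at 0.0140 counting SDs, and it was the step lost under TMM. Its spines overlapped between fish, since DS2 of replicate 2 lay above DSL of replicate 1.

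STRG.2259 (chromosome 2, 8205638 to 8218718, - strand) kept all 9 steps under each scaling. It had 1.91, 1.28 and 2.05 CPM in DS1, 3.05, 2.29 and 3.57 CPM in DS2, 4.17, 2.33 and 3.92 CPM in DS3, and 6.15, 5.83 and 12.4 CPM in DSL. Every DSL library lay above every library of the other spines. The smallest step was from DS2 to DS3 in replicate 2, a ratio of 1.01.

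STRG.15943 (chromosome 12, 7431739 to 7437714, - strand) had its highest level in DSL, above the pterygiophore and both fins. Levels were 16.2, 20.8 and 9.66 CPM in DS1, 17.1, 26.7 and 14.3 CPM in DS2, 17.2, 27.0 and 17.5 CPM in DS3, and 29.2, 54.2 and 78.6 CPM in DSL. The fish differed in the size of the change, with log2 differences between DSL and DS1 of 0.83, 1.36 and 2.96 in replicates 1, 2 and 3. The last step held 75.1% of the whole difference. Pter had 13.7, 10.6 and 10.6 CPM, DF had 10.9, 13.5 and 19.3 CPM, and AF had 16.2, 12.9 and 15.6 CPM, all below the lowest DSL library.

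STRG.17356 (chromosome 13, 7780394 to 7799669, + strand) also kept all 9 steps under each scaling. It had 1.52, 2.52 and 1.32 CPM in DS1, 1.98, 3.48 and 2.16 CPM in DS2, 2.22, 4.91 and 2.94 CPM in DS3, and 3.83, 7.18 and 7.49 CPM in DSL. Its smallest step was a ratio of 1.12, the largest such value among the rising genes. Pter had 1.24, 2.17 and 1.84 CPM and DF had 2.04, 2.85 and 2.26 CPM, with means of 1.75 and 2.38 CPM against 1.79 CPM in DS1.

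STRG.11731 (chromosome 9, 1809170 to 1815302, - strand) changed less in replicate 1 than in the other fish. Levels were 3.29, 3.44 and 1.78 CPM in DS1, 4.00, 3.58 and 3.45 CPM in DS2, 4.58, 4.98 and 4.41 CPM in DS3, and 6.03, 10.1 and 7.90 CPM in DSL. Every DSL library was again above every library of the spines in front. DF had 8.12, 11.3 and 9.84 CPM, which was above all spines of the same fish in 3 of 3 fish.

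STRG.27260 (chromosome 21, 10523658 to 10534437, - strand) and STRG.4718 (chromosome 4, 6648047 to 6650157, + strand) completed the 8 largest, at 1.15 ± 0.77 and 1.13 ± 0.07. Unlike most, both had their largest step between DS1 and DS2. Mean levels of STRG.27260 were 1.54, 2.67, 3.32 and 3.98 CPM in DS1, DS2, DS3 and DSL, and its DS1 level in replicate 2 was 0.890 CPM. STRG.4718 was close to the minimum, with means of 0.414, 0.822 and 1.01 CPM in DS1, DS2 and DS3, 1.35 to 1.67 CPM in DSL, and 11 to 46 reads in a spine library.

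The 7 remaining rising genes had smaller differences on the scale of log2(CPM + 0.5), in which the offset shrinks the differences of genes with low levels. The ratio of the DSL mean to the DS1 mean was 2.74 in STRG.27371, against 2.59 in STRG.27260, which ranked above it. STRG.27371 and STRG.21955 differed between DSL and DS1 by 0.94 ± 0.23 and 0.89 ± 0.45, at mean levels between 0.498 and 3.52 CPM. STRG.19005, STRG.7424, STRG.23629, STRG.10513 and STRG.23308 differed by 0.49, 0.45, 0.43, 0.33 and 0.27. These last genes were moderately abundant, with tissue means of 7.44 to 30.3 CPM in the spines. They kept 5 to 7 of the 9 steps under TMM, and STRG.23308 had no step over 2 counting SDs.

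In some of them a single fish stood above the others in every spine. STRG.19005 had 41.8, 21.4 and 23.5 CPM in DSL against 27.3, 16.1 and 17.1 CPM in DS1, so that DS1 of replicate 1 was above DSL of both other fish. STRG.23629 was highest in replicate 3 in all 7 tissues, where DS1 had 18.1 CPM, above the 14.3 and 15.3 CPM of DSL in replicates 1 and 2.

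The falling genes were led by STRG.8506 (chromosome 7, 1619187 to 1626220, + strand), in which every one of the 9 steps exceeded 2 counting SDs. The counting SD covers Poisson error alone and the steps were chosen to be in order, so this is not a test of them. DS1 had 31.7, 21.6 and 12.01 CPM, DS2 had 16.4, 13.2 and 10.2 CPM, DS3 had 5.35, 4.98 and 5.82 CPM, and DSL had 0.304, 1.21 and 0.643 CPM. The libraries of DS3 and DSL did not overlap with those of any other spine. DSL minus DS1 was -4.16 ± 1.02 on the log2 scale, with -5.33 in replicate 1, where DSL had 8 reads, its lowest count in a spine library. The decrease was spread over all 3 steps, at -0.61, -1.21 and -2.34.

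Outside the spines STRG.8506 was near the level of DSL. Pter had 1.31, 1.17 and 0.353 CPM, DF had 1.12, 1.05 and 0.650 CPM, and AF had 0.579, 0.436 and 0.459 CPM. All 9 of these libraries lay below the lowest DS3 library.

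STRG.15092 (chromosome 11, 11707312 to 11731420, - strand) and STRG.23437 (chromosome 18, 8026409 to 8052916, + strand) changed less, by -0.92 ± 0.24 and -0.38 ± 0.08. STRG.15092 had 5.14, 6.38 and 5.48 CPM in DS1, 4.26, 4.62 and 3.01 CPM in DS2, 3.12, 4.47 and 2.42 CPM in DS3, and 2.92, 3.30 and 2.12 CPM in DSL. Its DS1 libraries were all above those of the other spines. STRG.23437 was the most abundant member in the spines, with means of 86.3, 83.6, 76.3 and 66.4 CPM, and it kept 5 of the 9 steps under TMM.

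**Figure D3:**
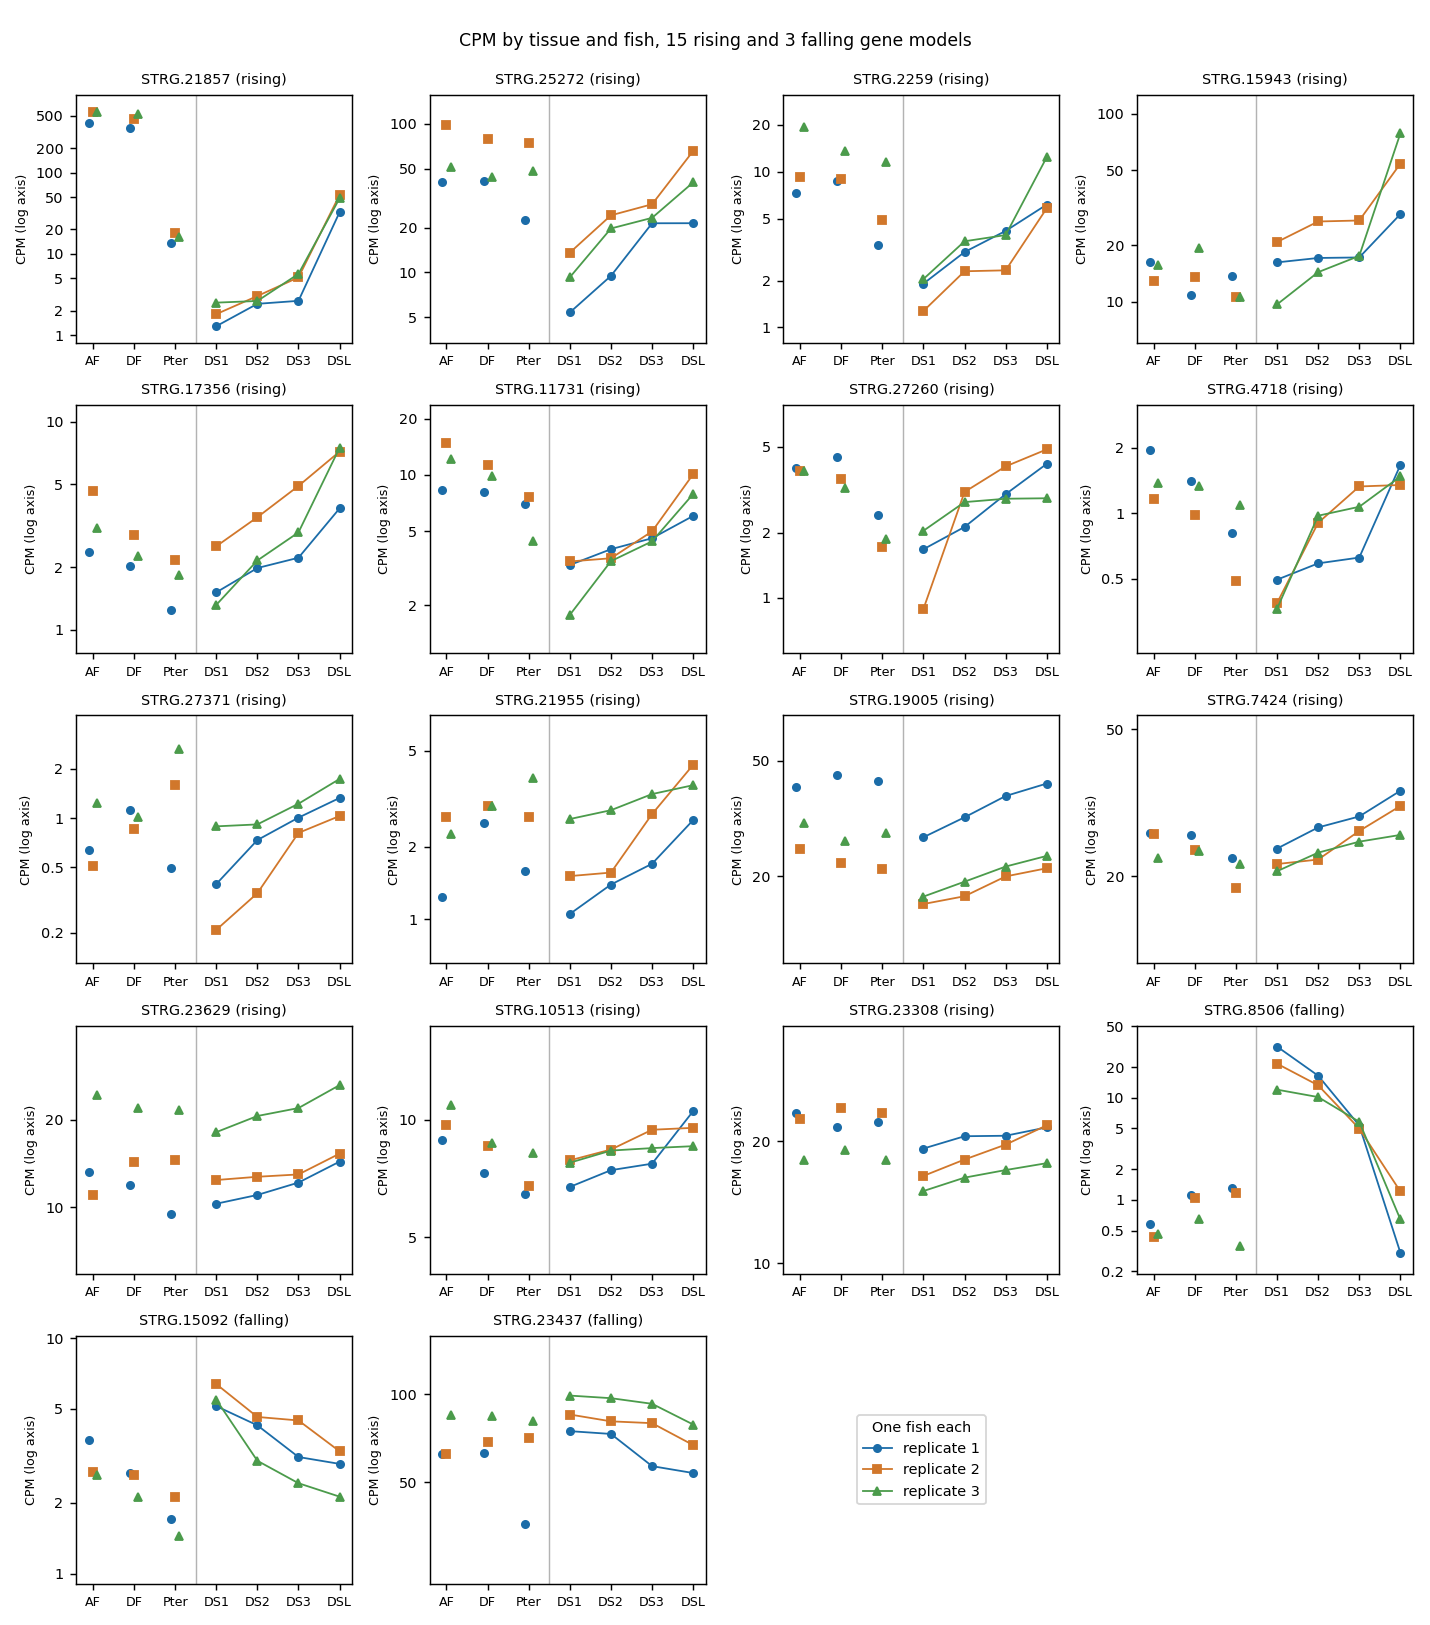
CPM from raw totals (log axis, own range in each panel) of the 15 rising and 3 falling genes by tissue, with 1 symbol for each of 3 fish and lines joining the spines of a fish. STRG.21857 reaches 354 to 566 CPM in the fins against 1.28 to 53.2 CPM in the spines, and STRG.8506 is at 0.353 to 1.31 CPM in Pter and the fins.

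Values at the edge of the rule show how narrow it was. STRG.18327, with means of 152, 170, 178 and 254 CPM along the spines, missed it because DS3 had 253.1 CPM in replicate 2 and DS2 had 253.3 CPM. STRG.21989 missed the falling set by 0.609% at 1 step. The rising member with the lowest larger mean, STRG.27371, reached 1.36 CPM in DSL, and the gene in strict order with the highest mean below the minimum, STRG.11371, reached 0.491 CPM. With 8 of the 9 steps in order there were 83 rising and 37 falling genes.

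In the genome the members were scattered. The coordinates are those of the authors' assembly, whose scaffolds follow the *Gasterosteus* chromosomes, and the 18 members lay on 14 chromosomes, 9 on each strand. None was within 1 Mb of a *Hox* gene, but the share of all gene models that close to one was not counted. The nearest was STRG.15943, 2.78 Mb from *HOXC13A*, and STRG.7424 lay 13.8 Mb from *HOXD11B* on chromosome 6. The summed exon length had a median of 3180 bp in the members and 2664 bp in all gene models that met the minimum, and the median level in the spines was 9.33 CPM and 12.9 CPM in these sets.

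The nearest gene model on each side of a member that met the minimum and did not overlap it was taken as its neighbour. None of these 36 neighbours was a member itself. The median size of their difference between DSL and DS1 was 0.13 on the log2 scale, against 0.12 over all gene models that met the minimum. Of the 36, 20 had the sign of the member beside them. With its sign, the median difference over all gene models that met the minimum was 0.06, so the 20 are not read against an even split. The neighbour with the largest difference was STRG.27370, which lies 52 bp from STRG.27371 on the same strand. It had means of 1.07 CPM in DSL and 0.400 CPM in DS1. The values of these abutting models are uncertain, since their reads could be split between them. STRG.23308 was the only member overlapped by another gene model, on the opposite strand, so its values are uncertain where the counting did not use strand.

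The blank pterygiophore lies between spines and was compared with the mean of the 4 spines, to ask where the members stood in a skeletal element without a spine. Of the 15 rising genes 6 were higher in Pter and none was lower, and 2 of the 3 falling genes were lower, where 4.52% of all 21134 tested genes were higher and 6.97% lower (11.5% in either direction). The median difference of the 15 rising genes was 0.54 on the log2 scale, and that of all tested genes was 0.00. The comparison uses the spine libraries on which the members were chosen, so it is not independent of the choice. The adjusted p-values of single members below share this limit, and nothing is read from the counts or medians against those of all genes. In the set of 19 rising genes picked on TMM-scaled totals, 3 were higher in Pter and 1 was lower.

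STRG.21857 was higher in Pter than the log-scale mean of the spines by 1.83 ± 0.21 (log2 difference ± SE), with an adjusted p of 2.55e-05 in the quasi-likelihood test of edgeR with Benjamini-Hochberg adjustment, in 3 of 3 fish. STRG.25272 was higher by 1.58 ± 0.36, with an edgeR adjusted p of 0.00934, and had 22.6, 74.1 and 48.5 CPM in Pter against spine means of 9.41 to 42.5 CPM. STRG.2259 was higher by 1.27 ± 0.31. Its Pter libraries had 3.40, 4.89 and 11.5 CPM with raw totals, each below DSL of its fish. With TMM-scaled totals, Pter of this gene was above all 4 spines in 2 of 3 fish. STRG.11731 and STRG.23308 were higher by 0.87 ± 0.20 and 0.54 ± 0.12. With raw totals STRG.23308 had means of 21.3 CPM in Pter and 18.7 CPM over the spines, and under TMM it kept 5 of the 9 steps along the spines. STRG.27371 was higher by 1.27 ± 0.39 in 2 of 3 fish, with 0.496, 1.59 and 2.65 CPM in Pter, a spread that exceeded the range of its spine means (edgeR adjusted p = 0.0442).

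Among the falling genes STRG.8506 was lower in Pter by -2.24 ± 0.37 (edgeR adjusted p = 0.000645) and STRG.15092 by -0.77 ± 0.23 (edgeR adjusted p = 0.0394), both in 3 of 3 fish. STRG.8506 had means of 0.944 CPM in Pter and 0.718 CPM in DSL, so in the means Pter was not below every spine. The Pter libraries of STRG.15092 had 1.70, 2.11 and 1.45 CPM, each below every spine of its fish. The other members did not pass with tissue as the only term. Among the rising ones, differences ran from -0.70 in STRG.15943 and -0.49 in STRG.17356 to 0.70 in STRG.19005. Of all 15 rising genes, 12 had a positive difference.

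Scaling bears on these values, since the tests used TMM and the CPM printed beside them used raw totals. The median gene was lower in Pter than in the spines by -0.29 on the log2 scale with raw totals. The contrast also averages the 4 spines on the log scale, which lowers their mean where 1 spine is far above the rest. For STRG.21857 the arithmetic means of TMM-scaled CPM were 20.1 in Pter and 12.6 over the spines, a log2 ratio of 0.67, and Pter was below DSL in every fish. For STRG.25272 the same log2 ratio was 1.39. TMM factors were 0.773 to 0.797 in Pter libraries and 0.861 to 1.19 in spine libraries. Leaving out replicate 2 left 1 of the 6 rising calls, STRG.21857, and the calls of STRG.27371 and STRG.15092 were lost whichever fish was left out. The fits that left out a fish had tissue as the only term. With fish as a term in the model, 9 rising genes were higher and 1, STRG.17356, was lower, in a fit that called 31.7% of all genes.

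In the dorsal fin, 4 rising genes were higher than the log-scale mean of the spines and 1 was lower, while 2 falling genes were lower. The spine values that chose the members enter this contrast too, so its adjusted p-values are not independent of the choice. Its counts are likewise not read against those of all genes. Among all tested genes 11.3% were higher and 5.98% lower (17.3% in either direction). The median of the 15 rising genes was 0.10 and that of all tested genes -0.02, and 10 of the 15 did not pass. With raw totals the median gene was 0.13 higher in DF than in the spines and 0.49 higher than in Pter. The difference of STRG.21857 was far from the rest, at 6.13 ± 0.20 (edgeR adjusted p = 1.89e-12, higher in 3 of 3 fish).

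STRG.2259 was higher in DF by 1.42 ± 0.30 (edgeR adjusted p = 0.00310), with 8.74, 8.95 and 13.6 CPM in DF. STRG.25272 was higher by 1.26 ± 0.37 (edgeR adjusted p = 0.0243), with 41.5, 79.7 and 44.0 CPM in DF, and STRG.11731 by 0.97 ± 0.19 (edgeR adjusted p = 0.00159). The comparison shares its spine libraries with that of Pter. STRG.15943 was lower in DF by -0.89 ± 0.29 (edgeR adjusted p = 0.0415, lower in 3 of 3 fish), the only rising gene to be so. STRG.8506 and STRG.15092 were lower by -2.78 ± 0.37 and -0.80 ± 0.23.

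Several calls were lost with fewer fish, while the differences kept their direction. These fits had tissue as the only term and did not pair the tissues of a fish. The call of STRG.25272 was lost when any of the 3 fish was left out, those of STRG.15943 and STRG.15092 without replicate 1 or replicate 2, and that of STRG.2259 without replicate 2, which left 2 of the 5 rising calls. Without replicates 1, 2 and 3 in turn the difference of STRG.25272 was 1.14, 1.21 and 1.40, and without replicate 2 that of STRG.2259 was 1.35 and that of STRG.15943 was -0.60. With fish as a term, 4 rising genes were higher and 3 were lower, and all 3 falling genes were lower, where 35.6% of all genes were called. In that fit, with all 3 fish, STRG.25272 had an edgeR adjusted p of 2.37e-07.

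**Figure D4:**
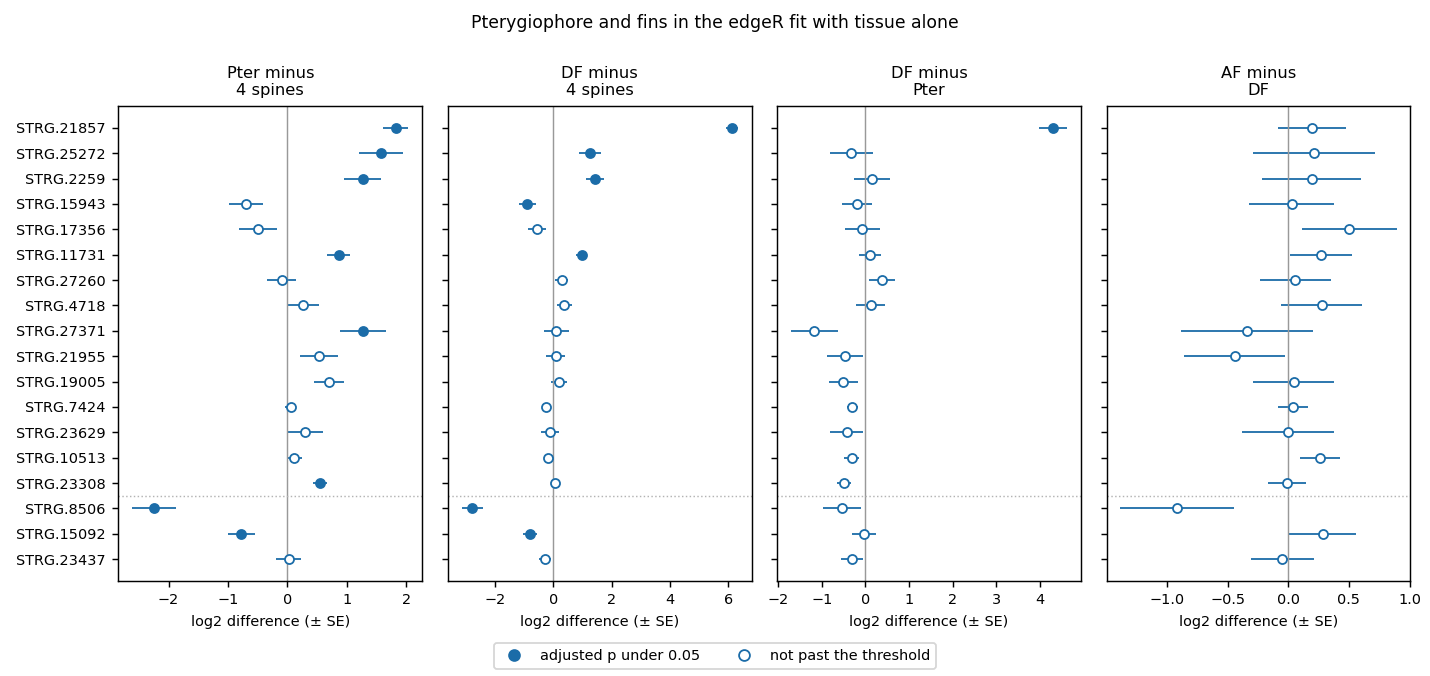
Log2 differences with their SE in the edgeR fit for each member, from left to right Pter minus the 4 spines, DF minus the 4 spines, DF minus Pter and AF minus DF. Filled points have an adjusted p under 0.05, and a dotted line parts the 15 rising genes from the 3 falling ones. STRG.21857 is the only member called between DF and Pter, and no member is called between AF and DF.

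DF and Pter were compared directly, with no spine library involved in the contrast. STRG.21857 was higher in DF by 4.31 ± 0.32 (edgeR adjusted p = 5.54e-07, in 3 of 3 fish), with 354, 459 and 527 CPM in DF against 13.5, 17.9 and 15.9 CPM in Pter. It was the only rising gene called, and 5.38% of all tested genes were higher in DF and 4.76% lower (10.1% in either direction). No falling gene was called by edgeR, DESeq2 or limma-voom, and none had an unadjusted edgeR p under 0.05 with tissue as the only term, while 1 did with fish as a term. With fish as a term 5 rising genes were lower in DF, among them STRG.19005 and STRG.23308 at -0.50 and -0.49, where 29.6% of all genes were called.

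AF and DF, a pair of fins, gave no call for any member. In edgeR 0.00946% of all genes were higher in AF and 0.208% lower (0.218% in either direction), and no member had an unadjusted p under 0.05 with tissue as the only term. DESeq2 and limma-voom called no member either, nor did edgeR with fish as a term, where 0.0142% of all genes were higher and 0.412% lower. In that fit 1 rising and 1 falling gene had an unadjusted p under 0.05. Differences ran from -0.44 to 0.50 over the rising genes, and STRG.8506 had the largest of any member, at -0.92 ± 0.47 and lower in AF in 3 of 3 fish, from 0.579, 0.436 and 0.459 CPM in AF against 1.12, 1.05 and 0.650 CPM in DF.

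Within single fish, the position of the fins and the pterygiophore relative to the spines differed between members. With raw totals, DF was above all 4 spines of its fish in 3 of 3 fish in 6 rising genes, AF in 5 and Pter in 2, and with TMM these numbers were 4, 4 and 3. Pter lay between DS3 and DSL in 3 of 3 fish for 1 rising gene, STRG.21857, under both scalings. None of the rising genes was below all spines in 3 of 3 fish in any of these tissues. Of the falling genes, STRG.15092 was below all 4 spines in Pter and in DF in 3 of 3 fish. These positions use the spine values that chose the members, and the share of all gene models in each position was not counted. With raw totals the median gene differed from the spines by 0.13 in DF and by -0.29 in Pter, on the log2 scale. The numbers of members are therefore not read as a trait of the set.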

How the data were processed

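Reads of stranded mRNA libraries were trimmed by the authors with Trim Galore (cutadapt 2.4) and checked with FastQC 0.11.9, then mapped with STAR and counted with featureCounts (Subread 2.0.1), as the submitters' processing notes list these tools. The paper states another version of featureCounts, and whether counting used strand is not given in the sources used here. The deposited values are counts per gene model, whole numbers without normalization, over StringTie models on the authors' own assembly, in which only 47 *Hox* genes are named. Of 106 columns, 85 belong to other fish and were not used.

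Members were taken from CPM on raw column totals as described with the results, and log2 differences in the spines used an offset of 0.5 CPM. CPM values are from raw totals unless they are called TMM-scaled. For the pterygiophore and fins, 21134 gene models kept by filterByExpr, all 18 members among them, were fitted with TMM factors and tissue as the only term in edgeR 4.0.16 (R 4.3.3), and tested with the quasi-likelihood F test at a Benjamini-Hochberg threshold of 0.05 over all of them. A contrast against the spines takes the mean of the 4 spine coefficients, and the SE was taken as the difference over the root of F. The members, lists, comparisons and tests were chosen with earlier results of these data known. Genes were named by size of the DSL to DS1 difference, by level, by distance to a *Hox* gene (1 Mb), by the calls and at the edge of the rule. STRG.18327, STRG.21989 and STRG.27370 were named after their values were seen.

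A replicate number stands for 1 fish, so numbers pair the samples. Residuals of different tissues of a fish correlated at 0.468 or more (median 0.643, 63 pairs), and fish was added as a term (replicate block) as an alternative, which lowered the biological coefficient of variation to 0.118 from 0.255. Replicates of a tissue were not duplicates, with a chi-square per degree of freedom between them of 21.4 to 238. Other alternatives were RLE factors, DESeq2 1.42.0, limma-voom (limma 3.58.1), other filters, the compared tissues alone, and leaving out each fish. The procedures were tested on simulated data first. Those data had no differences between fish beyond random noise, so they do not show how the procedures do with paired tissues.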

Additional observations from a re-analysis of the deposited data

How the results depend on the processing

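The number of genes picked by the rule moved with many settings, and less with the minimum level. RLE-scaled totals gave 23 rising and 3 falling genes, and TMM-scaled totals gave 19 and 6. A margin of 5% at each step gave 2 and 1, and the order of the means alone gave 581 and 299. Leaving out 1 fish gave 38 to 75 rising and 13 to 28 falling genes. A margin can only remove genes, and the order of the means can only add them. Each set without 1 fish asks for order in fewer fish, and each held all 15 rising and 3 falling members. A minimum of 0.5, 2 or 5 CPM gave 15, 13 and 11 rising genes and 3 falling genes each. In the comparison of Pter with the spines, the replicate block (fish as a term) called 10 rising genes, and limma-voom, no filter on low counts and the compared tissues alone each called 1 falling gene. Leaving out 1 fish called 1 to 4 rising genes and 1 falling gene. For DF against the spines, the TMM-scaled set of rising genes had 9 calls, and leaving out 1 fish gave 2 to 4 rising and 1 to 2 falling calls. For DF against Pter, 2 rising genes were called with RLE factors or DESeq2, 6 with the replicate block, 1 to 2 without 1 fish, and 2 rising and 2 falling genes in the TMM-scaled sets. Of 16 calls of single genes, all kept their side of the threshold with RLE factors, DESeq2 and the replicate block, 3 were lost with limma-voom and 3 with the compared tissues alone, and 7, 10 and 4 without replicates 1, 2 and 3. No difference of a called gene changed direction in any of these settings. The fits that left out a fish had tissue as the only term and did not pair the tissues of a fish. Where settings disagree the cause was not tested. With 3 fish and neighbouring spines that often differ by less than 1 counting SD, strict order limits what can be said of any single step.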

Other observations

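The genes in strict order under TMM-scaled totals, but outside the set on raw totals, were 15 rising and 4 falling gene models, and they were looked at after their values were seen. STRG.16169 had 79.8 TMM-scaled CPM in AF, 84.6 in DF and 74.3 in Pter (means over fish), against 23.4, 38.4, 47.7 and 111 in DS1, DS2, DS3 and DSL. STRG.15142 had 14.4, 13.6 and 15.2 TMM-scaled CPM in AF, DF and Pter and 14.7, 19.7, 24.5 and 53.3 along the spines, levels near those of the member STRG.15943, which had 14.8, 20.3, 22.9 and 49.2 along the spines. STRG.13096, in falling order, had 3.21 TMM-scaled CPM in AF, 2.54 in DF and 1.09 in Pter, against 3.67, 2.07, 1.64 and 0.939 along the spines.

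The share of the gene models in strict order within a single fish differed between fish, as did the split between directions. These shares were not set against those of a random order. With raw totals, replicates 1, 2 and 3 had 287, 428 and 1110 of the 17670 gene models in rising order (1.62%, 2.42% and 6.28%) and 816, 189 and 258 in falling order (4.62%, 1.07% and 1.46%). With TMM-scaled totals the numbers were 695, 631 and 959 in rising order and 781, 494 and 737 in falling order.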
